A study of Mus musculus with 4 samples.

Results

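The posterior growth zone factors are 7 transcription factor genes that mark the primitive streak, the caudal epiblast and the tail bud of the mouse embryo: *Cdx1*, *Cdx2*, *Cdx4*, *Evx1*, *Nkx1-2*, *Sp5* and *Mesp1*. They were chosen by name, as the probe sets whose only annotated gene symbol is one of these, and each of the 7 genes has 1 such probe set. They stand among 19938 genes measured by 21789 probe sets with a single symbol, and 35556 probe sets in all. The arrays were bexarotene-treated embryoid bodies (EBs), RA-treated EBs and untreated EBs, all at day 7, and undifferentiated ES cells, with 1 array for each. All come from the mouse ES cell line D3, and EBs, floating clusters of ES cells that start to make the germ layers, spent 2 days in hanging drops before 5 days of suspension culture. The dose of bexarotene, an agonist of the retinoid X receptors, was 50 nM. Retinoic acid (RA), the ligand of the retinoic acid receptors, was given at 5 µM in the sample labels and 10 nM in the article, and either dose differs from that of bexarotene.

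In the embryo the posterior growth zone holds the progenitors from which the trunk and tail are laid down. Wnt and FGF signals keep it active, and RA made by the somites opposes them at its anterior edge. The Cdx genes carry Wnt, FGF and RA input to the Hox clusters and so help to set positional identity, and *Cdx1* is known in the mouse embryo as a direct target of both RA and Wnt signaling. Excess RA is known to truncate the posterior axis of the mouse embryo.

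The probe set values are log2 signals already normalized by the authors. Each condition has 1 array, so there are no replicates and no test was made, and each difference is one between 2 arrays. Higher and lower, in counts, mean a difference of more than the study's threshold of 1.5-fold, 0.585 on the log2 scale. As a scale for small differences, the bexarotene array was set against the RA array and a robust SD was computed from genes of like signal. It is called the spread here, lay between 0.121 and 0.137 for the 7 genes, and holds real differences between the ligands. The robust SD over all genes was 0.115 for that pair, 0.167 for bexarotene against untreated EBs, 0.172 for RA against untreated EBs and 0.317 for untreated EBs against ES cells, so the spread is no bound on the differences of other pairs. The comparisons of bexarotene and of RA with untreated EBs share the 1 untreated array.

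Of 42 differences, those of 7 genes in 6 pairs of arrays, 27 were larger than the spread. This count has no share of all genes beside it, so it does not set the 7 genes apart. Between RA and ES cells *Evx1* differed by 1.66 spreads, yet 49.5% of all genes differed more. For *Cdx4* between untreated EBs and ES cells, 1.08 spreads apart, this share was 65.4%, and for *Sp5* in that pair it was 11.3%. Of the 42, 2 were past 1.5-fold. *Sp5* was higher in untreated EBs than in ES cells, and *Cdx2* was lower with RA than in untreated EBs. *Mesp1* was also lower with both ligands, by less than 1.5-fold. These 3 genes differed from untreated EBs by more than 2 spreads with each ligand. For the other 4 genes both differences from untreated EBs were under 2 spreads, and among their remaining differences those of *Cdx1* between bexarotene and RA and between bexarotene and ES cells were above 2 spreads.

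The promoters of these 3 genes are shown because the genes were lower together in both treated EBs and because *Sp5* is known as a direct target of Wnt signaling. They run from before the transcription start site to shortly after it, 300 bases each, 5′ to 3′ on the strand of the gene, in the RefSeq sequence of GRCm38.p6. Capitals mark CTTTGA, the core of the sites bound by TCF and LEF factors, or TCAAAG, the same core on the other strand. The *Sp5* promoter lies at chr2:70474673-70474972 on the plus strand, that of *Cdx2* at chr5:147307200-147307499 on the minus strand and that of *Mesp1* at chr7:79793541-79793840 on the minus strand.
Sp5: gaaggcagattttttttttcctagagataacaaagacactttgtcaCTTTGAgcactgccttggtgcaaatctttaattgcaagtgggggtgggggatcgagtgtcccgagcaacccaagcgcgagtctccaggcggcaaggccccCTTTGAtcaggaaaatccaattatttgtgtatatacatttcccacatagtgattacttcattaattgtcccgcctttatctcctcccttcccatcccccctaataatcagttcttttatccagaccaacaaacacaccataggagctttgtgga
Cdx2: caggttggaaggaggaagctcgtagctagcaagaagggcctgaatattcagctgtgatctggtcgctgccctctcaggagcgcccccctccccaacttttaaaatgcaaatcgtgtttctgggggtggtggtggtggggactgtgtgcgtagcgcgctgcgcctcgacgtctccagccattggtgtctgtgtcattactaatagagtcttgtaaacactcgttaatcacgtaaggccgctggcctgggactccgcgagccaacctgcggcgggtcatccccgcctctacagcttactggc
Mesp1: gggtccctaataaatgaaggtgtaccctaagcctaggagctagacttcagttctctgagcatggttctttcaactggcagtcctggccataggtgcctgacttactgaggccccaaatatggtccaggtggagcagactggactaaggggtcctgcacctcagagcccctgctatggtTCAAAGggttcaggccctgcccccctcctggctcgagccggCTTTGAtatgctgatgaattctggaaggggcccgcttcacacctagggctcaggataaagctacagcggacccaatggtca

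The *Sp5* promoter holds CTTTGA at positions -204 and -104, counted from the start site to the first base of the match. The *Mesp1* promoter holds CTTTGA at -31 and TCAAAG at -72, and the *Cdx2* promoter has neither. Of 32851 mouse promoters of this length, 16.0% hold this core on either strand, and of the 6 promoters of the growth zone genes that were searched 2 do. The promoter of *Cdx1* was not among those searched, so counts out of 6 do not cover it. The nuclear receptor element in the form AGGTCA, or TGACCT on the other strand, is in 16.3% of all promoters and in 0 of the 6. Variants of these letters were not searched. The core of Cdx sites, TTTATG or CATAAA, is in 11.9% of all and in 0 of the 6. The T-box element AGGTGT, or ACACCT on the other strand, is in 13.7% of all and in 3 of the 6, those of *Evx1*, *Mesp1* and *Cdx4*. A match of letters is a description and not a bound site, and these letters may lie outside the windows searched.

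**Figure D1:**
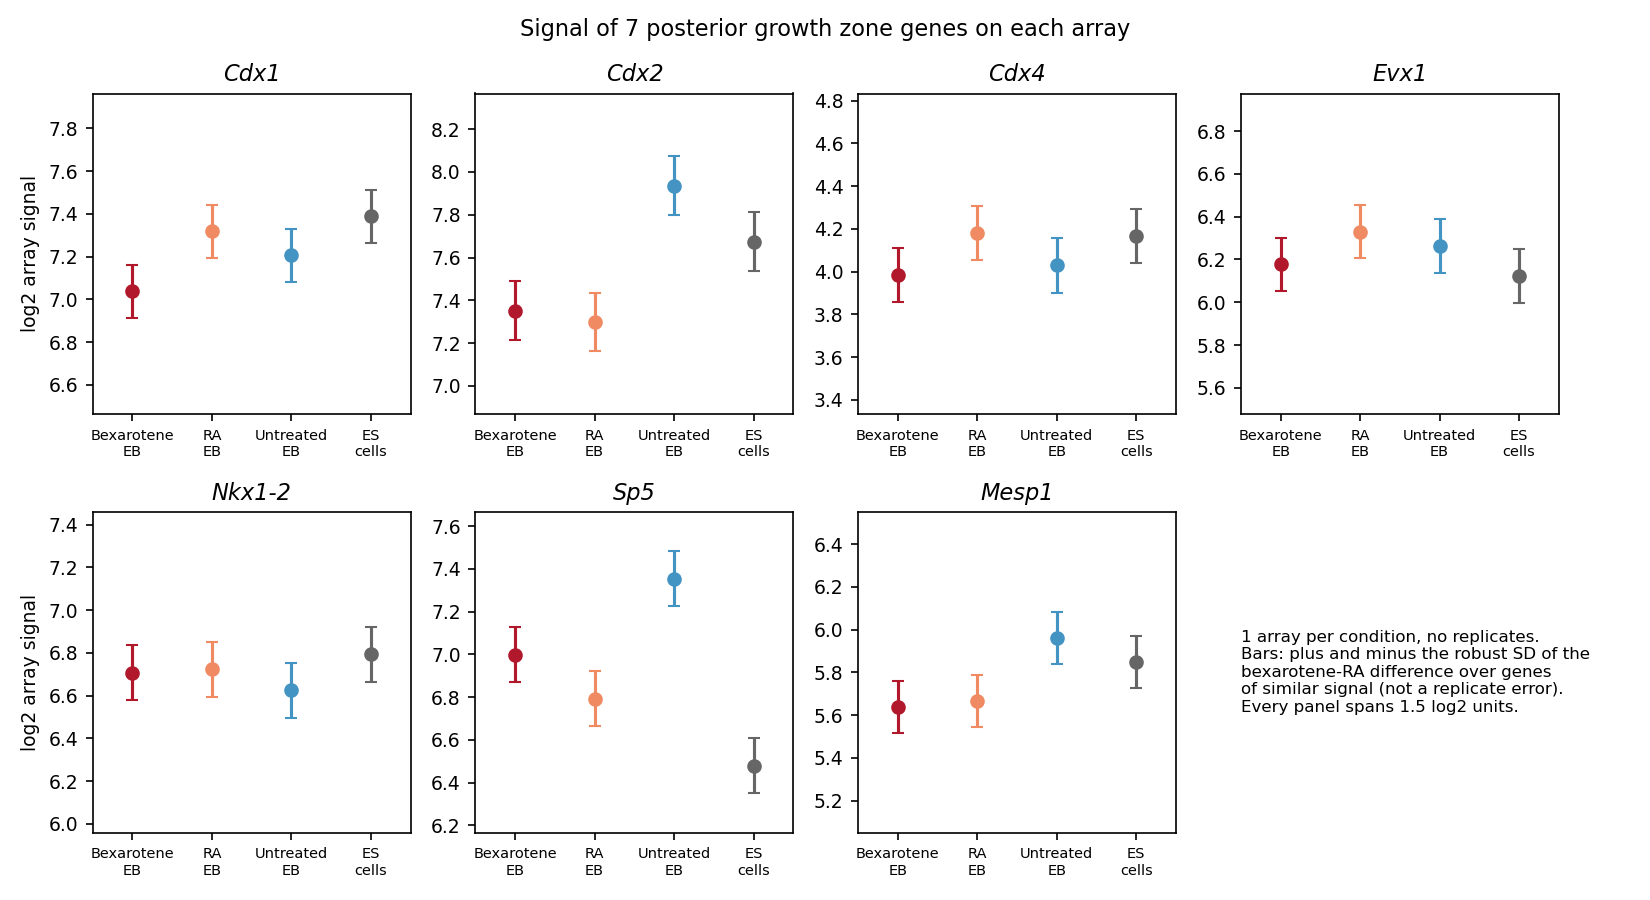
Log2 array signal of each of the 7 genes on the y axis, for bexarotene-treated, RA-treated and untreated EBs and ES cells on the x axis, with 1 point per array and every panel spanning 1.5 log2 units. Bars mark the spread computed from the bexarotene and RA arrays at that signal, not a replicate error, and *Cdx2*, *Sp5* and *Mesp1* have their highest point in untreated EBs.

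The 3 Cdx genes, the caudal homeobox family, did not vary alike. *Cdx2*, which in the mouse acts in the tail bud and is also known from trophoblast and intestine, had a log2 signal of 7.35 with bexarotene, 7.30 with RA, 7.94 in untreated EBs and 7.67 in ES cells. Both treated EBs lay below untreated EBs and ES cells, and the 2 treated arrays differed by less than the spread of 0.137.

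*Cdx2* was 1.55-fold lower with RA than in untreated EBs. The log2 difference with bexarotene, -0.584, lay just inside the threshold of 0.585, so that *Cdx2* was counted as lower with RA and not with bexarotene although its bexarotene and RA signals differed by 0.05. Of all genes, 3.64% had a larger difference between bexarotene and untreated EBs in either direction, and 3.74% between RA and untreated EBs. Among the 997 genes of similar signal these shares were 6.82% and 7.72%. In untreated EBs *Cdx2* was 1.20-fold higher than in ES cells, a difference that 44.1% of genes exceeded.

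*Cdx1* had a log2 signal of 7.04 with bexarotene, 7.32 with RA, 7.21 in untreated EBs and 7.39 in ES cells. Only the bexarotene array stood apart from its neighbor in this order by more than the spread of 0.124. *Cdx1* was 1.12-fold lower with bexarotene than in untreated EBs and 1.08-fold higher with RA. The difference with RA was smaller than the spread and was exceeded by 51.5% of all genes. Its log2 difference between bexarotene and RA was -0.28, more than 2 spreads, and 4.91% of genes differed more between these arrays.

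*Cdx4*, the X-linked member of the family, had a log2 signal of 3.98 with bexarotene, 4.18 with RA, 4.03 in untreated EBs and 4.17 in ES cells. All 4 values were below the lower quartile of their array, which lay between 5.19 and 5.22. A difference in *Cdx4* would therefore be hard to detect on these arrays, and its whole range over them was 0.20.

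*Sp5*, a zinc finger factor of the Sp family that Wnt signaling induces, varied most among the 7 genes. Its log2 signal was 7.00 with bexarotene, 6.79 with RA, 7.35 in untreated EBs and 6.48 in ES cells, where it lay below the array median of 6.66. Each step in this order was larger than the spread of 0.128.

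*Sp5* was 1.83-fold higher in untreated EBs than in ES cells, 6.81 times the spread, and 11.3% of all genes differed more. It was 1.28-fold lower with bexarotene than in untreated EBs and 1.47-fold lower with RA, neither past 1.5-fold. The bexarotene signal was 1.15-fold above the RA signal. Relative to ES cells, *Sp5* was 1.43-fold higher with bexarotene and 1.24-fold higher with RA.

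*Mesp1*, a basic helix-loop-helix factor that marks mesoderm as it leaves the streak and is known for its role in heart progenitors, had a log2 signal of 5.64 with bexarotene, 5.67 with RA, 5.96 in untreated EBs and 5.85 in ES cells. As for *Cdx2*, both treated EBs lay below untreated EBs and ES cells. Bexarotene and RA differed by 0.03, less than the spread of 0.121. *Mesp1* was 1.25-fold lower with bexarotene than in untreated EBs and 1.23-fold lower with RA, and 11.2% and 14.9% of genes differed more in these pairs. It lay below the median of every array.

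*Evx1* and *Nkx1-2* are homeobox genes of the posterior streak and the caudal epiblast, and *Evx1* is known also from spinal interneurons. *Evx1* had a log2 signal of 6.18 with bexarotene, 6.33 with RA, 6.26 in untreated EBs and 6.12 in ES cells, below the array median in all 4. *Nkx1-2* had 6.71 with bexarotene, 6.72 with RA, 6.62 in untreated EBs and 6.79 in ES cells. For both genes no 2 neighbors in the order of the arrays differed by more than the spread, which was 0.126 for *Evx1* and 0.128 for *Nkx1-2*. Over the 4 arrays *Evx1* ranged over 0.21 and *Nkx1-2* over 0.17.

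**Figure D2:**
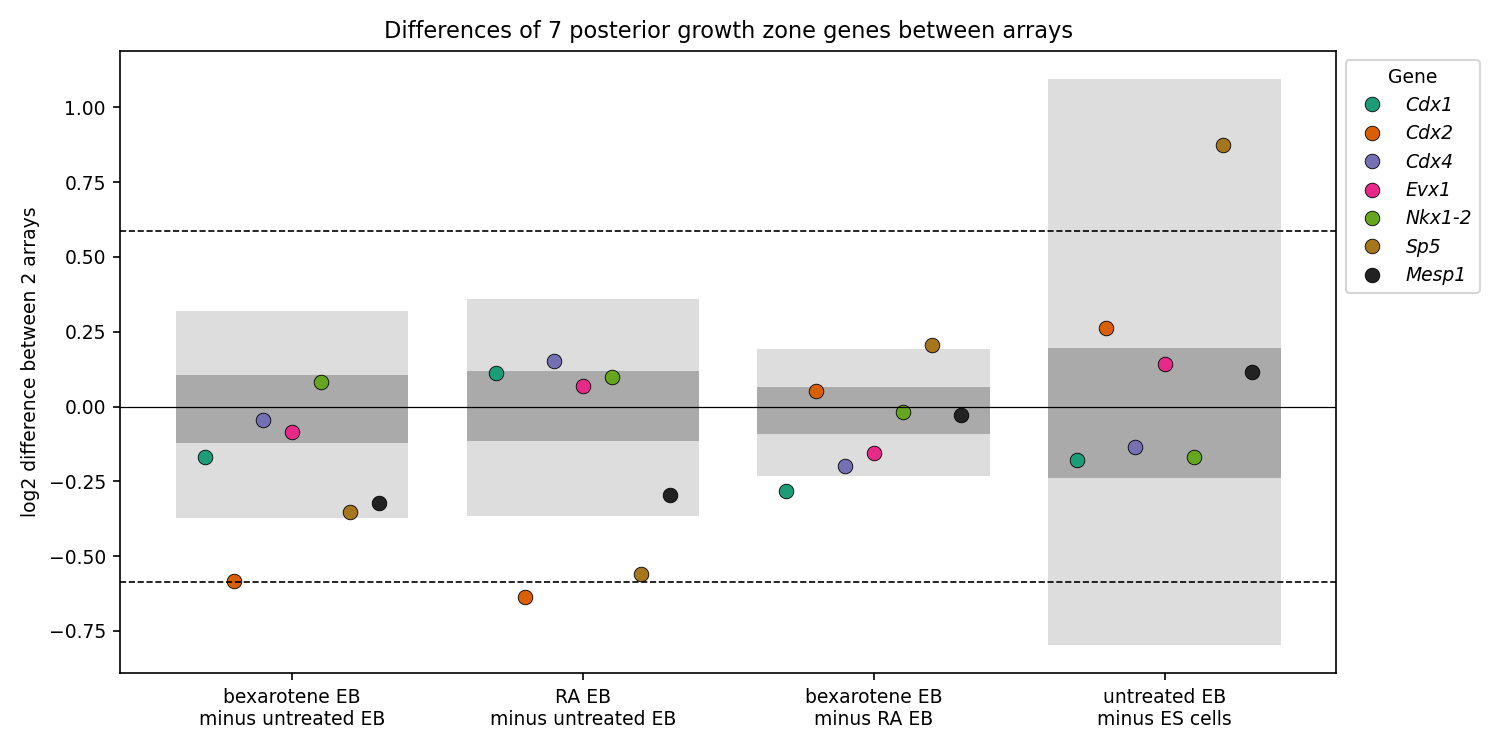
Log2 difference between 2 arrays on the y axis for 4 comparisons on the x axis, with 1 point per gene and dashed lines at 1.5-fold. Light bands hold the 5 to 95 percentiles of all genes and dark bands the 25 to 75 percentiles, and the points past a dashed line are *Cdx2* with RA (-0.64) and *Sp5* in untreated EBs against ES cells (0.87).

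Counted over the 7 genes, bexarotene had 0 higher and 0 lower than untreated EBs, where 1.52% of all 19938 genes were higher and 2.19% lower. RA had 0 higher and 1 lower, where 2.11% of all genes were higher and 2.29% lower. Between bexarotene and RA 0 of 7 were past 1.5-fold, against 0.507% of all genes in either direction. In untreated EBs against ES cells 1 of 7 was higher and 0 lower, where 11.2% of all genes were higher and 8.62% lower. Against ES cells 0 of 7 were past 1.5-fold with bexarotene, where 10.3% of all genes were higher and 9.82% lower, and 0 of 7 with RA, where 10.7% were higher and 9.32% lower.

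The median log2 difference of the 7 genes was -0.17 with bexarotene, beside -0.01 for all genes, and 6 of 7 differences were below 0, as were 51.8% of all genes. *Nkx1-2* was the exception at 0.08. With RA the median was 0.07, beside 0.00 for all genes, and 3 of 7 were below 0. These medians rest on small differences, since *Cdx1*, *Cdx4* and *Evx1* had opposite signs with the 2 ligands and lay within 2 spreads of the untreated array with each. In untreated EBs against ES cells the median was 0.11, beside -0.04 for all genes, with 4 of 7 above 0.

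The name of the group describes where these genes are expressed in the embryo, and on these arrays they did not share 1 pattern. After each gene's mean was subtracted, the Euclidean distance over the 4 arrays was shortest between *Cdx1* and *Cdx4*, at 0.12. It was 0.13 between *Cdx4* and *Nkx1-2*. *Cdx4* and *Nkx1-2* had little range, 0.20 and 0.17, while *Cdx1* ranged over 0.35, beside 0.32 for *Mesp1*. *Cdx2* was nearest to *Mesp1*, at 0.26, and *Sp5* lay 0.58 or more from each of the other 6. No gene of the 7 ranged over 1 log2 unit or more, which had been set as the condition for a search for similar genes. For the 2 genes that ranged over at least 0.5, a condition chosen after the values were seen, the nearest of 15360 other genes were *Phyhd1*, *Zfp607a* and *Nbeal1* for *Cdx2*, at distances of 0.06 to 0.07, and *Slc13a4*, *Lpp* and *Strbp* for *Sp5*, at 0.05 to 0.08. *Slc13a4* had a log2 signal of 7.13 with bexarotene, 6.91 with RA, 7.42 in untreated EBs and 6.56 in ES cells.

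Related genes were read from lists. Beside these counts and those of the markers below stand the shares of all genes past 1.5-fold. Against untreated EBs 1.52% were higher and 2.19% lower with bexarotene, and 2.11% and 2.29% with RA. In untreated EBs against ES cells 11.2% were higher and 8.62% lower. The lists are small, so a count of 1 or 2 genes can lie near these shares. Some genes, *Rspo3*, *Lhx1* and *Hand1* among them, are on more than 1 list, here or among the markers. Counts that share such a gene are not separate measurements. Among Wnt feedback and target genes, 8 of 13 were past 1.5-fold higher in untreated EBs than in ES cells and 1 was lower, with a median of 1.21, as *Sp5* was. With bexarotene 1 of 13 was higher than in untreated EBs and 4 lower, with a median of -0.03, and the counts with RA were 2 higher and 4 lower (median 0.00). The 4 lower genes were the same with both ligands: *Apcdd1* and *Dkk1*, which encode Wnt antagonists, *Lgr5*, a receptor for R-spondins, and *Lef1*, a transcription factor of the pathway. *Apcdd1* was lower by 3.04-fold with bexarotene and by 2.86-fold with RA, and *Lef1* by 2.29-fold and 1.94-fold. *Axin2*, a negative feedback gene of the pathway, had a log2 signal of 8.66 with bexarotene, 8.54 with RA, 8.98 in untreated EBs and 8.01 in ES cells, the same order of arrays as *Sp5*. Its differences from untreated EBs, -0.32 with bexarotene and -0.45 with RA, were of the size of those of *Sp5*, -0.35 and -0.56. *Axin2* was named after its values were seen, and other genes of the list differed from it. In the same order, *Nkd1* had 0.03 and 0.06, *Nkd2* 0.28 and 0.26, *Notum* 0.22 and 0.07, and *Rnf43* -0.04 and -0.19. *Sp8*, the close relative of *Sp5*, had a log2 difference of 0.30 with bexarotene and 0.65 with RA, both above 0.

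Of 14 Wnt, FGF and Nodal family ligands and agonists, 0 were higher and 2 lower with bexarotene than in untreated EBs, and 1 was higher and 2 lower with RA. The lower genes were *Rspo3* and *Wnt5a*, where *Rspo3* was lower by 3.03-fold with bexarotene and by 3.58-fold with RA, and *Wnt5a* by 2.35-fold and 2.45-fold. *Wnt3a*, the main Wnt ligand of the mouse tail bud, had a log2 signal of 6.52 with bexarotene, 6.37 with RA, 6.43 in untreated EBs and 6.66 in ES cells. *Fgf8*, the FGF ligand of the same region, had 7.80 with bexarotene, 7.74 with RA, 7.81 in untreated EBs and 7.34 in ES cells. Neither was past 1.5-fold in any pair of arrays. Against ES cells, 3 of the 14 were higher and 4 lower in untreated EBs.

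Of 10 neuromesodermal and caudal epiblast genes, 0 were past 1.5-fold with bexarotene or with RA against untreated EBs, with medians of 0.17 and 0.09. These 10 leave out *T* (brachyury), which was on the list but had no probe set with a single symbol and was not read. The article reports *T* as lower with both ligands than in untreated EBs. *Cyp26a1*, the RA-degrading enzyme that protects the tail bud, was the only gene of the 10 past 1.5-fold between the ligands. Its log2 signal was 9.87 with bexarotene, 9.24 with RA, 9.60 in untreated EBs and 5.75 in ES cells. Of 14 genes of presomitic mesoderm and segmentation, 2 were higher and 1 lower with bexarotene, and 1 was higher and 1 lower with RA. *Dll1*, a Notch ligand of this tissue, was higher with both, by 0.66 on the log2 scale with bexarotene and 0.96 with RA, *Pcdh8*, a protocadherin, was 1.54-fold higher with bexarotene, and *Rspo3* was the lower gene with both. *Tbx6*, which specifies presomitic mesoderm, had log2 differences from untreated EBs of -0.14 with bexarotene and -0.06 with RA, and *Msgn1*, another factor of this tissue, of 0.07 and 0.03. *Mesp2*, the paralog of *Mesp1* that acts in segmentation, had -0.01 with each.

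Of 9 primitive streak genes, 5 were lower and 0 higher with bexarotene than in untreated EBs, with a median of -0.67, and 2 were lower and 1 higher with RA, with a median of -0.27. *T*, also on this list, was not read for want of a probe set with a single symbol. *Gsc*, a homeobox gene of the anterior streak, was 2.36-fold lower with each ligand. *Mixl1*, which marks nascent mesendoderm, had a log2 signal of 5.97 with bexarotene, 6.15 with RA, 6.64 in untreated EBs and 6.58 in ES cells, and like *Mesp1* and *Cdx2* it was lower in both treated EBs than on the other 2 arrays.

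Hox genes, to which Cdx factors relay positional signals, were counted by paralog group. In groups 1 to 5, 8 of 14 genes were higher with bexarotene and 6 with RA, and 0 were lower. The rest of the 14, 6 with bexarotene and 8 with RA, were within 1.5-fold. In groups 6 to 13, 0 of 23 were past 1.5-fold with either ligand, with medians of 0.08 and 0.04. Most of these 23 lay below the median of every array, and *Hoxc6* below every lower quartile, where a lower signal would be hard to detect. *Cyp26b1*, which encodes an RA-degrading enzyme, was higher by 3.51-fold with bexarotene and by 3.73-fold with RA on the arrays on which *Cdx1* was within 1.5-fold. Of 15 genes of retinoid response and metabolism, *Cyp26b1* among them, 4 were higher and 1 lower with bexarotene, and 3 were higher and 1 lower with RA. The medians of this list were 0.21 with bexarotene and 0.06 with RA. *Cyp26a1* and *Rarb* had log2 differences of 0.27 each with bexarotene and of -0.36 and -0.38 with RA.

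**Figure D3:**
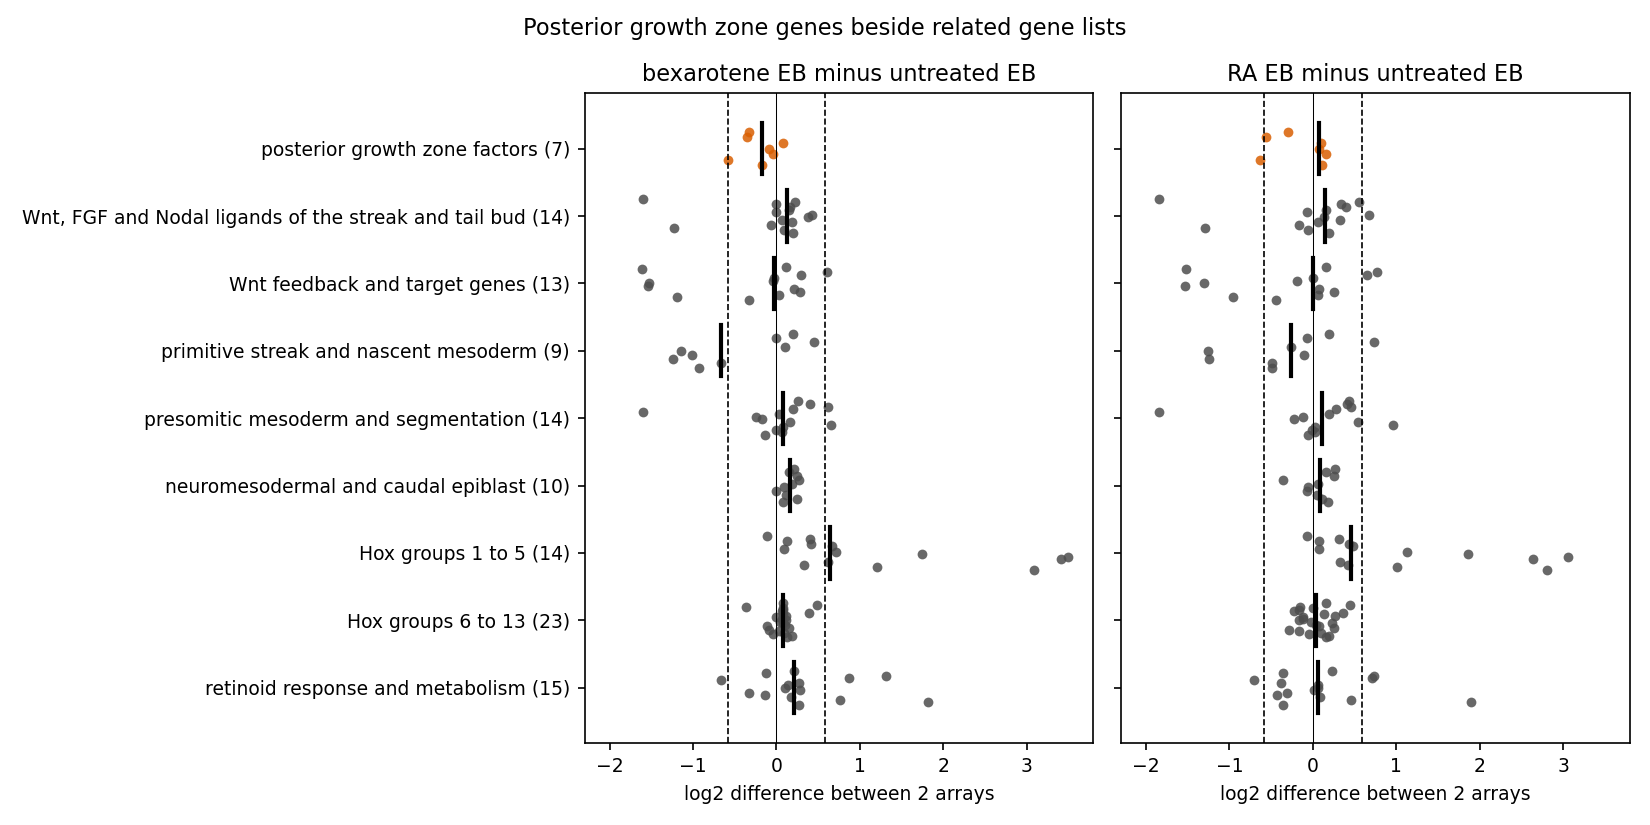
Log2 difference from untreated EBs on the x axis, with bexarotene on the left and RA on the right, for the 7 genes (orange) and for 8 related lists (gray), with the number of genes in parentheses, bars at list medians and dashed lines at 1.5-fold. The 7 genes lie between -0.64 and 0.15, while Hox groups 1 to 5 reach 3.49 with bexarotene and 3.06 with RA.

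Several of the 7 genes are also known from other cells, whose markers were read on the same arrays. These are whole cultures, so fewer cells of a type and less RNA per cell cannot be told apart. Beside *Cdx2*, 0 of 9 trophoblast markers were past 1.5-fold with bexarotene and 2 were lower with RA, *Gata3* at 1.75-fold and *Hand1* at 1.75-fold. The summed linear signal of these 9 markers was 2343 with bexarotene, 1960 with RA, 2145 in untreated EBs and 2544 in ES cells. Their mean log2 signal was 7.33 with bexarotene, 7.19 with RA, 7.26 in untreated EBs and 7.25 in ES cells. ES cells were thus highest by the sum and not by the mean. Of 8 markers of intestinal epithelium 0 were past 1.5-fold in either comparison. Their summed signal was 455 with bexarotene, 457 with RA, 484 in untreated EBs and 442 in ES cells. All 8 lay below the median of every array, and *Cdh17* and *Fabp2* also below every lower quartile. A difference in these markers would therefore be hard to detect. Beside *Mesp1*, 1 of 8 cardiac mesoderm markers was lower with bexarotene and 3 with RA, with a summed signal of 3724 with bexarotene, 3576 with RA, 3682 in untreated EBs and 1708 in ES cells. The mean log2 signal of these 8 was 8.05 with bexarotene, 7.83 with RA, 8.19 in untreated EBs and 7.24 in ES cells, so that bexarotene lay above untreated EBs by the sum and below by the mean. Beside *Evx1*, 1 of 5 markers of V0 interneurons of the spinal cord was higher and 2 were lower with bexarotene, and 1 was higher and 1 lower with RA. The summed signal of these 5 was 1858 with bexarotene, 2164 with RA, 1367 in untreated EBs and 597 in ES cells, and their mean log2 signal was 7.69 with bexarotene, 8.10 with RA, 7.97 in untreated EBs and 6.81 in ES cells. With bexarotene the sum was above that of untreated EBs and the mean below it, since *Dbx1*, at a log2 signal of 10.34 with bexarotene and 8.73 in untreated EBs, weighs most in the sum. Of 7 ES cell markers 6 were lower in untreated EBs relative to ES cells. Against untreated EBs, 0 of them were past 1.5-fold with bexarotene and 4 were higher with RA. Their summed signal was 2533 with bexarotene, 3158 with RA, 2203 in untreated EBs and 12342 in ES cells. The part of these cell types in the signal of the 7 genes was not tested.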

How the data were processed

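RNA of 4 cultures was hybridised to Affymetrix arrays, 1 per condition, and the deposited log2 signals were used as they are. The authors normalized and summarized them per probe set in Affymetrix Expression Console, with RMA (article) or GC-RMA (design text and the submitters' processing notes). Signal medians were 6.66 to 6.69 on the 4 arrays. Both the normalization and the lack of replicates limit small differences, and no test was made. Of the probe sets, 21789 carry 1 gene symbol, 1621 carry several and 12146 carry none. Levels of a gene are those of its probe set with the highest mean. A gene counts as higher or lower if any of its probe sets is past 1.5-fold and no other is past it in the opposite direction.

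The members and gene lists were chosen with earlier results of these data known. The rule for named genes took the 7 members, up to 4 genes of each list with the largest difference between bexarotene and untreated EBs among those past 1.5-fold between EB arrays, and the nearest profiles of members ranging over at least 1 log2 unit. Others, among them *Axin2*, *Sp8*, *Wnt3a*, *Fgf8*, *Tbx6*, *Msgn1*, *Mesp2*, *Mixl1* and the nearest profiles of *Cdx2* and *Sp5*, were named after their values were seen. The spread is the scaled median absolute deviation in 20 bins of signal. Promoters were matched by symbol for 6 of the 7 genes, all but *Cdx1*. The script that counts genes past the threshold was checked on simulated arrays with known changes, which gives no null for the counts. Scripts ran in Python 3.11.15 with pandas 2.3.3 and numpy 2.4.6. The alternatives were a 2-fold threshold, quantile normalization, loess (span 0.3) and flooring at the 25th percentile. A further one subtracted each array's median over the probe sets with 1 symbol. Others left out probe sets below the median of both arrays or took the mean of a gene's probe sets. A 1.3-fold threshold was chosen after seeing the data.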

Additional observations from a re-analysis of the deposited data

How the results depend on the processing

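The count of the 7 genes past 1.5-fold was the same in all 6 comparisons under quantile normalization and loess. It was also unchanged by the floor at the 25th percentile and by the mean of probe sets. Nor did it change when each array's median over the probe sets with 1 symbol was subtracted. The filter on probe sets below the median, which left out *Cdx4*, *Evx1* and *Mesp1*, also left the count unchanged. At 2-fold the counts were 0 with RA against untreated EBs, where 1.47% of all genes were past it in either direction, and 0 for untreated EBs against ES cells, where 9.42% were, so that neither *Cdx2* nor *Sp5* was past it. At 1.3-fold, a threshold chosen after seeing the data, 1 gene was past it with bexarotene against untreated EBs (*Cdx2*) and 2 with RA (*Cdx2* and *Sp5*), all lower, where 4.99% and 4.87% of all genes were lower. Against ES cells 1 was past it with bexarotene, *Sp5*, which was higher, as were 15.3% of all genes. Of 234 single differences under the alternatives, 230 moved by less than the spread, 0 called ones changed sign, and 4 moved more, all of *Cdx4* under the floor, which lies above its signal. *Cdx2* with bexarotene lies 0.00063 inside the threshold, so its call rests on the threshold and not on a difference between ligands. No paired analysis was possible because each condition has 1 array. The low signal of *Cdx4* limits what can be seen of it.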
